A study of Homo sapiens with 18 samples.

Results

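The stretch of chromosome 1 from 80 to 120 Mb (GRCh38, positions 80000000 to 120000000, on the short arm) was described by its open chromatin and by the expression of its genes. Its members are the ATAC-seq peaks that lie wholly between these positions in each of 4 deposited peak lists. The A2780 control list held 411 such peaks of 34979, the A2780 cisplatin list 357 of 32159, the Acis control list 215 of 24485 and the Acis cisplatin list 235 of 27321. The interval was chosen by its number of peaks in the 4 lists, with fewer in Acis, so these counts are a description and carry no test. Expression was measured separately by RNA-seq, but in the same lines, so it need not be independent of that choice. Of the 23622 genes of the count table, 293 lie wholly inside the interval, 184 of them protein coding. Of the 293 genes, 211 passed the filter on low counts and were tested, 160 of them protein coding.

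A2780 is a human ovarian carcinoma cell line that is sensitive to cisplatin, and Acis is its cisplatin-resistant derivative, which was kept resistant by adding 1 µM cisplatin every 3 passages. Each line was analyzed untreated (control) and after 3 h in 200 µM cisplatin. RNA-seq had 3 replicates in each of the 4 groups, with 4130644 to 5072216 counted reads per library, and ATAC-seq gave 1 list per group, made from 3 control or 2 cisplatin replicates. Each line is a single culture lineage, so whatever else separates Acis from A2780 and the resistance cannot be told apart. Replicates of a group differed by 0.73 to 1.53 times the counting noise. The paper describes them as triplicates seeded in multiwell plates, and nothing in the labels says that they came from separate cultures. The p-values therefore measure only the spread between these libraries. Of the 5 epithelial markers, KRT18 had 18.3 to 32.0 normalized counts in A2780 control and 132 to 150 in Acis control, KRT8 had 12.5 to 20.5 and 2.12 to 6.84, EPCAM had at most 5.80 in any library, and KRT19 and CDH1 have no entry in the count table. PAX8, WT1, MUC16 and MSLN have none either, so the ovarian carcinoma label rests on the name of the line. All 3 fibroblast markers were lower in Acis control, with 787 to 902 against 8.50 to 22.4 for COL1A1, 36.3 to 51.9 against 2.12 to 4.56 for DCN and 10.6 to 13.9 against 1.06 to 3.42 for LUM. These markers moved with the difference between the lines described below, and their part in it was not tested. Of the 3 immune markers, CD68 had at most 6.55 in any library and PTPRC and CD3E have no entry, nor have the endothelial markers PECAM1 and VWF.

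ATAC-seq maps open chromatin with a transposase that inserts sequencing adapters where DNA is not wrapped in nucleosomes, and a peak is a place where such insertions pile up over the local background. Open regions lie mostly at promoters, which are often shared between cell types, and at distal elements such as enhancers and CTCF sites, which vary more. Cisplatin binds neighbouring guanines in DNA and blocks transcription. Among the genes of the interval are a cluster of glutathione S-transferases of the mu class, the guanylate-binding proteins induced by interferon, the GTPase NRAS and the replication kinase CDC7.

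Peaks that overlapped between lists were merged into 531 regions. The regions with the highest fold enrichment of each sharing pattern are printed below as single examples, which need not stand for their pattern. Each window holds 200 bases of the plus strand of GRCh38 that include the summit of the peak. Windows were moved off annotated untranslated regions, by 5 bp at LRIF1 and −98 bp at MAN1A2, where the summit lies near the end of the window. Capitals mark matches to a CTCF core (AGNGGGC) or to an AP-1 motif (TGANTCA), searched on both strands, and a window without capitals holds neither. The first pair of windows was open in all 4 lists, the second in both A2780 lists and no Acis list, the third in both Acis lists and no A2780 list, and the last in both cisplatin lists and no control list.
Intron of HFM1, chr1:91387336-91387535: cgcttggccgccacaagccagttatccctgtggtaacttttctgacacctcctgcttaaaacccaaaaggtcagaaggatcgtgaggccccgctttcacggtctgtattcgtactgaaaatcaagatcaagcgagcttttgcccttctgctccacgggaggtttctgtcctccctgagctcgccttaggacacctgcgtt
Start of LRIF1, chr1:110963966-110964165: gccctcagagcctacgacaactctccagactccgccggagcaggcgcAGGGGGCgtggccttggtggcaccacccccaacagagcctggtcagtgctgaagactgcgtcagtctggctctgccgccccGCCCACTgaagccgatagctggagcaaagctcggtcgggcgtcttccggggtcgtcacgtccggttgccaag
Exon of PALMD, chr1:99685820-99686019: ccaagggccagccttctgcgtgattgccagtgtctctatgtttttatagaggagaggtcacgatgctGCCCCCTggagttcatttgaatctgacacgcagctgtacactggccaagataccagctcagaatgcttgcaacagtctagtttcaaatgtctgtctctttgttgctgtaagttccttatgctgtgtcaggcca
Near the start of HFM1, chr1:91404369-91404568: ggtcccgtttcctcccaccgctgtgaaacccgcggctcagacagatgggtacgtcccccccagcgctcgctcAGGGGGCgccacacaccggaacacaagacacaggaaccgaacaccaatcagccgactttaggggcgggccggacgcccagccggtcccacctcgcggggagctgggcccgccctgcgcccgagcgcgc
Intron of OLFM3, chr1:101993093-101993292: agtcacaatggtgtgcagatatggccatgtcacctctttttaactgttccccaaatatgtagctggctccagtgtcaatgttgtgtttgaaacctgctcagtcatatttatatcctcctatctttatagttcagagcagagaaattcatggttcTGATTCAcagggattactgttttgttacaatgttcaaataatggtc
Upstream of COL11A1, chr1:103180728-103180927: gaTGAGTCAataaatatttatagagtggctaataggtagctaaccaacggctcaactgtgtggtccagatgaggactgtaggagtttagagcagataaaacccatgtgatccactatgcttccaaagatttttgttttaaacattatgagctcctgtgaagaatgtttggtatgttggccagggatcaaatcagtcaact
Start of MAN1A2, chr1:117367249-117367448: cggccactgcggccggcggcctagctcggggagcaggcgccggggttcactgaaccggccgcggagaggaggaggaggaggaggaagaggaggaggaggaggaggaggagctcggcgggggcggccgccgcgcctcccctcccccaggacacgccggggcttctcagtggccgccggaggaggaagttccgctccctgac
Intergenic, chr1:84753587-84753786: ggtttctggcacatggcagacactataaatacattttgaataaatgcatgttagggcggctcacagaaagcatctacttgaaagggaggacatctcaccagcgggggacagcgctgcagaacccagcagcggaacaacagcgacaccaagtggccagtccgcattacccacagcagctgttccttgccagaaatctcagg

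The window in the intron of HFM1, a meiotic DNA helicase, had the highest enrichment in the interval, 31.4, 33.2, 34.4 and 31.7 times the local background in A2780 control, A2780 cisplatin, Acis control and Acis cisplatin. The 300 bases around its summit are 99.667% identical to 3 places on chromosome 21 (8218040 to 8218339, 8401078 to 8401377 and 8445310 to 8445609) that RefSeq annotates as 28S ribosomal RNA genes. The authors' aligner reported up to 10 places for a read, so where the reads of this peak came from was not tested. At LRIF1, which encodes a nuclear receptor-interacting factor, the start was enriched 24.8, 20.9, 26.9 and 30.3 times in the same order of lists. The A2780 windows were enriched 21.0 and 14.3 times over an exon within the span of PALMD and 20.5 and 18.9 times at 387 bp from the start of HFM1, in control and cisplatin, and each holds a CTCF core. Exons of all annotated genes were used, and whether this exon belongs to PALMD itself was not checked. The Acis windows were enriched 15.9 and 17.8 times in an intron of OLFM3 and 11.8 and 15.2 times at 71956 bp from the start of COL11A1, and each holds an AP-1 motif. The cisplatin windows were enriched 7.0 times in A2780 and 13.1 times in Acis at the start of MAN1A2, a Golgi mannosidase, and 12.9 times in both lines in the intergenic one. Each of these was chosen for its value, and only 4 of the 531 regions had the cisplatin pattern.

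The interval held 1.17% of all A2780 control peaks and 0.878% of all Acis control peaks. With cisplatin the shares were 1.11% in A2780 and 0.860% in Acis. Acis lists are shorter throughout the genome, so the counts were set against the rest. In the control lists there were 0.523 Acis peaks for each A2780 peak inside the interval, against 0.698 on the rest of chromosome 1 and 0.702 in the rest of the genome. In the cisplatin lists the ratio was 0.658 inside, 0.833 on the rest of chromosome 1 and 0.852 elsewhere. Among whole chromosomes, chromosome 13 was lower still, at 0.449 and 0.583. When each list was limited to its 20000 strongest peaks, the interval held 243 peaks in A2780 control and 178 in Acis control, a ratio of 0.733. At this limit the ratio was 0.982 on the rest of chromosome 1 and 1.00 in the rest of the genome. No spread between replicates is known for these lists, since only regions present in all replicates were deposited.

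After cisplatin the A2780 list had 0.869 times as many peaks in the interval as the control list, against 0.920 in the rest of the genome. In Acis the same ratio was 1.09 inside and 1.12 outside. Cisplatin lists were made from fewer replicates, and a peak had to be found in each replicate, so the treatment and this difference cannot be told apart. The edges of the interval fell between peaks in every list. In A2780 control the first peak inside started at 81414440 and was enriched 8.26 times, the last one outside ended at 78618037 and was enriched 14.2 times. At the other end the last peak inside ended at 119968455 (12.7 times) and the next one began at 120069397 (20.8 times), and in Acis control the last inside ended at 119713084 (14.8 times) and the next began at 120069567 (21.6 times).

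Peaks were unevenly spread within the interval. Between 80 and 90 Mb the A2780 control and Acis control lists held 54 and 35 peaks, and between 90 and 100 Mb they held 98 and 27. Between 100 and 110 Mb there were 141 and 93, and between 110 and 120 Mb 118 and 60. Acis control therefore had fewer peaks in each of the 4 windows of 10 Mb, with the widest gap between 90 and 100 Mb. Its list is shorter throughout, with 0.702 Acis control peaks for each A2780 control peak in the rest of the genome. The counts from 80 to 90 Mb and from 100 to 110 Mb were nearer to that ratio than those of the other windows. Single windows of 2 Mb varied more. From 96 to 98 Mb, where DPYD and PTBP2 lie, A2780 control had 22 peaks and Acis control 1, and from 106 to 108 Mb, where NTNG1 and VAV3 lie, there were 36 and 1. From 102 to 104 Mb, which holds COL11A1, the order was turned, with 7 peaks in A2780 control and 23 in Acis control. The cisplatin lists showed the same orders there, with 13 against 2, 15 against 1 and 5 against 16 peaks. From 100 to 102 Mb the A2780 lists had 55 (control) and 22 (cisplatin) peaks and the Acis lists 43 and 46. The longest stretch without a peak was 1918437 bp in A2780 control and 3530058 bp in Acis control (103526456 to 107056513), and both ended at overlapping peaks.

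**Figure D1:**
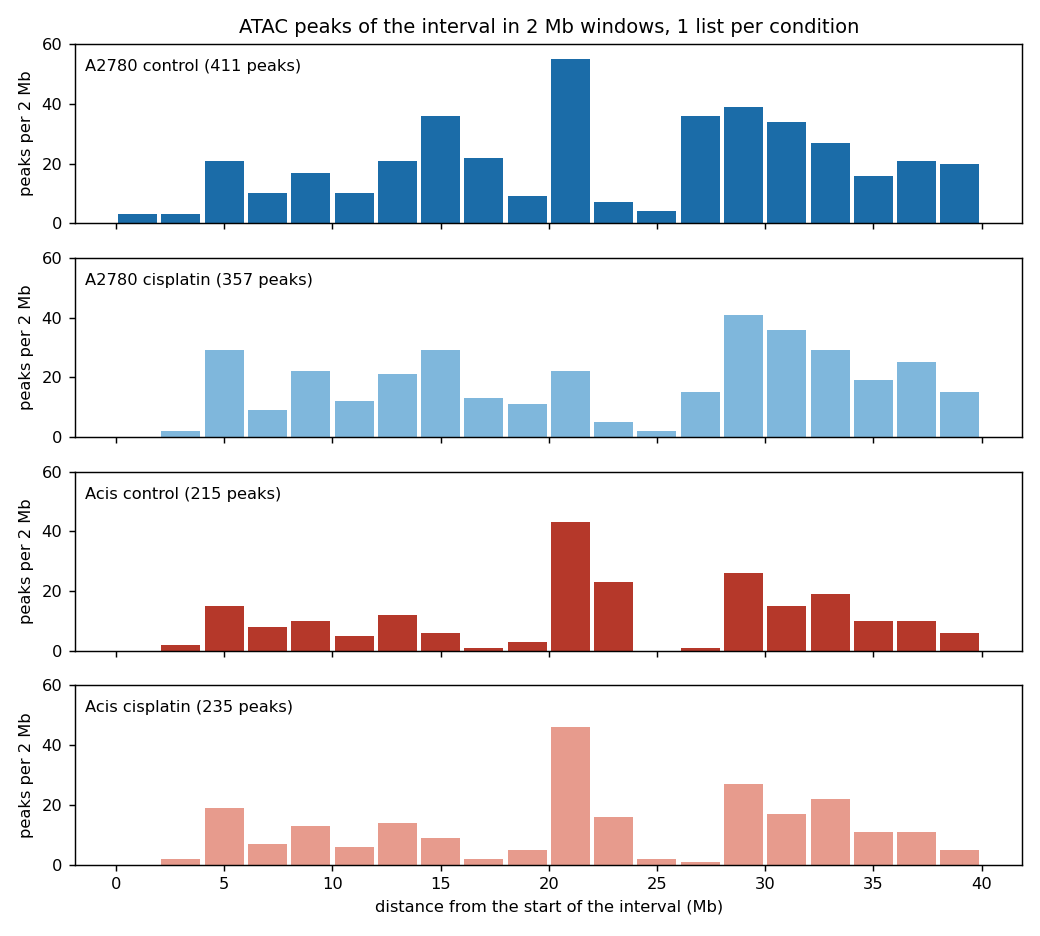
Number of ATAC-seq peaks in windows of 2 Mb along the interval, one panel for each of the 4 lists, with the distance from 80 Mb in Mb on the horizontal axis. The Acis panels are nearly empty where the A2780 control list has 36 peaks (106 to 108 Mb) and higher than the A2780 panels at 102 to 104 Mb, with 23 peaks in Acis control against 7.

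Most Acis peaks of the interval were also A2780 peaks, but not the reverse. Of the 215 Acis control peaks, 177 (82.3%) overlapped an A2780 control peak by at least 1 bp, close to the 83.3% in the rest of the genome. Of the 411 A2780 control peaks, 173 (42.1%) overlapped an Acis control peak, against 58.0% elsewhere. In the cisplatin lists 182 of 235 Acis peaks (77.4%, against 79.7%) and 180 of 357 A2780 peaks (50.4%, against 67.0%) were shared. A2780 control peaks that Acis control shared were the stronger ones, with a median −log10 q of 179 against 43.0 for those that it did not share. Where both lists had a peak, enrichment was much alike, with a median log2 ratio of Acis to A2780 of 0.07 inside the interval and 0.13 outside in control, and 0.16 and 0.26 with cisplatin. The interval was chosen for fewer Acis peaks, so the lower share of A2780 peaks found in Acis follows in part from that choice. Enrichment was compared only for pairs listed in both, over the local background, so it does not cover peaks missing from a list. Of 173 shared pairs, 59 (34.1%) were lower in Acis control, against 29.2% elsewhere.

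Across all 4 lists, 152 of the 531 regions (28.6%) were open in every list, compared with 41.1% on the rest of chromosome 1 and 38.6% in the rest of the genome. Both A2780 lists and no Acis list had 97 regions (18.3%, against 9.78% and 10.0%), and both Acis lists and no A2780 list had 26 (4.90%, against 3.10% and 4.67%). Of the regions found in a single list, 117 were in the A2780 control list, 71 in the A2780 cisplatin list, 10 in the Acis control list and 8 in the Acis cisplatin list. In all, 285 regions (53.7%) were seen in A2780 lists only, against 35.4% in the rest of the genome, and 44 (8.29%) in Acis lists only, against 10.3%. Both cisplatin lists and no control list had 4 regions (0.753%, against 1.64% in the rest of the genome), and both control lists and no cisplatin list had 3 (0.565%, against 1.06%).

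**Figure D2:**
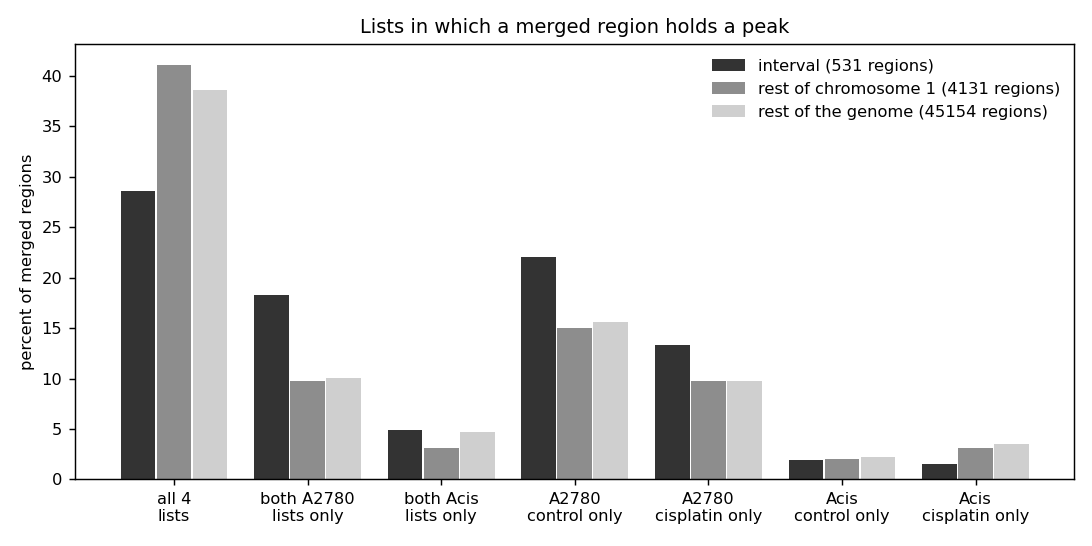
Percent of merged ATAC-seq regions (vertical axis) with each pattern of presence in the 4 lists, for the 531 regions of the interval, the 4131 of the rest of chromosome 1 and the 45154 of the rest of the genome. The interval has the lowest share open in all 4 lists (28.6%) and the highest share in both A2780 lists only (18.3%).

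The patterns differed in where they lay. Of the 152 regions open in all lists, 103 (67.8%) had the summit of their most enriched peak within 1000 bp of a gene start. The same held for 18 of the 97 A2780 regions (18.6%) and 2 of the 26 Acis regions (7.69%). By gene models, 19 of the 26 Acis regions were intronic, 7 were intergenic and none was exonic. Median enrichment was 18.7 times for the regions open in all lists, 9.77 for the A2780 regions and 8.30 for the Acis regions, taking the list with the highest value for each.

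Their sequences differed as well, counted here over all regions of a pattern. The printed windows were chosen for their enrichment and are single cases. In the 300 bases around the summit, median GC content was 62.3% for the regions open in all lists, 50.3% for the A2780 regions and 39.8% for the Acis regions, for which it was 44.3% in the rest of the genome. The AP-1 motif TGANTCA, bound by FOS and JUN dimers, was in 6 of the 26 Acis regions (23.1%, against 13.1% of such regions elsewhere), 9 of the 97 A2780 regions (9.28%, against 9.39%) and 6 of the 152 open in all lists (3.95%). The CTCF core AGNGGGC was in 74 of the regions open in all lists (48.7%, against 41.6%), 37 of the A2780 regions (38.1%, against 31.2%) and 1 of the Acis regions (3.85%, against 17.2%). The TEAD motif GGAATG was in 7 Acis regions (26.9%, against 24.1%). Over all 531 regions the shares were near those of the rest of the genome, at 9.42% against 7.59% for AP-1, 33.0% against 33.2% for the CTCF core and 17.3% against 16.8% for TEAD. The GC content of the patterns differed beside these shares, its part in them was not tested, and a match is not a bound site. In all, 27 of the 531 windows (5.08%) had another place in the genome with at least 95% identity over at least 100 bp, 6 of them A2780 regions and 1 an Acis region.

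The genes of the interval were mostly expressed at lower levels in Acis. In untreated cells, 95 of 211 tested genes (45.0%) were lower in Acis and 9 (4.27%) were higher with an adjusted p below 0.05 and a log2 difference of 1 or more in size, against 12.2% lower and 6.99% higher of all 15760 genes tested. By adjusted p alone, 167 (79.1%) were lower and 15 (7.11%) higher, against 30.6% and 28.2% of all genes. Groups of 3 libraries did not overlap for 166 lower and 15 higher genes, against 33.3% and 31% of all genes tested. The median log2 fold change was −0.87, a fold of 0.545, with quartiles of −1.63 and −0.41, and 181 of 211 genes were below 0. For all tested genes and for the rest of chromosome 1 the median was −0.01, and for chromosome 13 it was −0.73. In bulk libraries fewer expressing cells and less RNA per cell cannot be told apart.

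The shift was alike in every library. Taken against the mean of A2780 control, the median over the interval genes was −0.93, −0.87 and −0.85 in the 3 Acis control libraries. As a share of all counts of a library, the interval genes made up 11818 to 12003 CPM in A2780 control (mean 11918 ± 93.6, SD, n = 3) and 7257 to 7632 in Acis control (7483 ± 199), so the groups did not overlap. In the cisplatin libraries they made up 11297 to 11624 in A2780 (11512 ± 186) and 7514 to 7820 in Acis (7688 ± 158). With cisplatin in both lines, 76 of 211 genes were lower in Acis and 9 higher, against 11.9% and 7.28% of all genes tested, and the median log2 fold change was −0.70 (a fold of 0.615), against 0.00 for all genes. By adjusted p alone these were 160 and 16 genes, against 31.2% and 31.8%, and the libraries did not overlap for 158 lower and 21 higher genes, against 33.1% and 33.7%.

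Along the chromosome, the level began to differ inside the interval rather than at its first base. Among tested genes of any type whose counts averaged 50 or more over the 12 libraries, the median log2 fold change of Acis control against A2780 control was −0.16 from 75 to 80 Mb and 0.57 from 80 to 85 Mb, where 1 of 7 genes was below 0. It was −1.06 from 85 to 90 Mb, where 20 of 21 genes were below 0, −0.88 from 90 to 95 Mb and −1.63 from 95 to 100 Mb. From 100 to 105, 105 to 110, 110 to 115 and 115 to 120 Mb it was −0.86, −0.81, −0.86 and −0.61. From 120 to 125 Mb, beyond the interval, it was −0.87 over 4 genes, all below 0, so the lower level did not end at 120 Mb. Of the 128 protein-coding genes among them in the interval, 117 were below 0. The longest unbroken run of such coding genes below 0 held 52 genes, from SYDE2 (start at 85201724) to OLFM3 (start at 101996926), with MCOLN2 before it and COL11A1 after it.

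**Figure D3:**
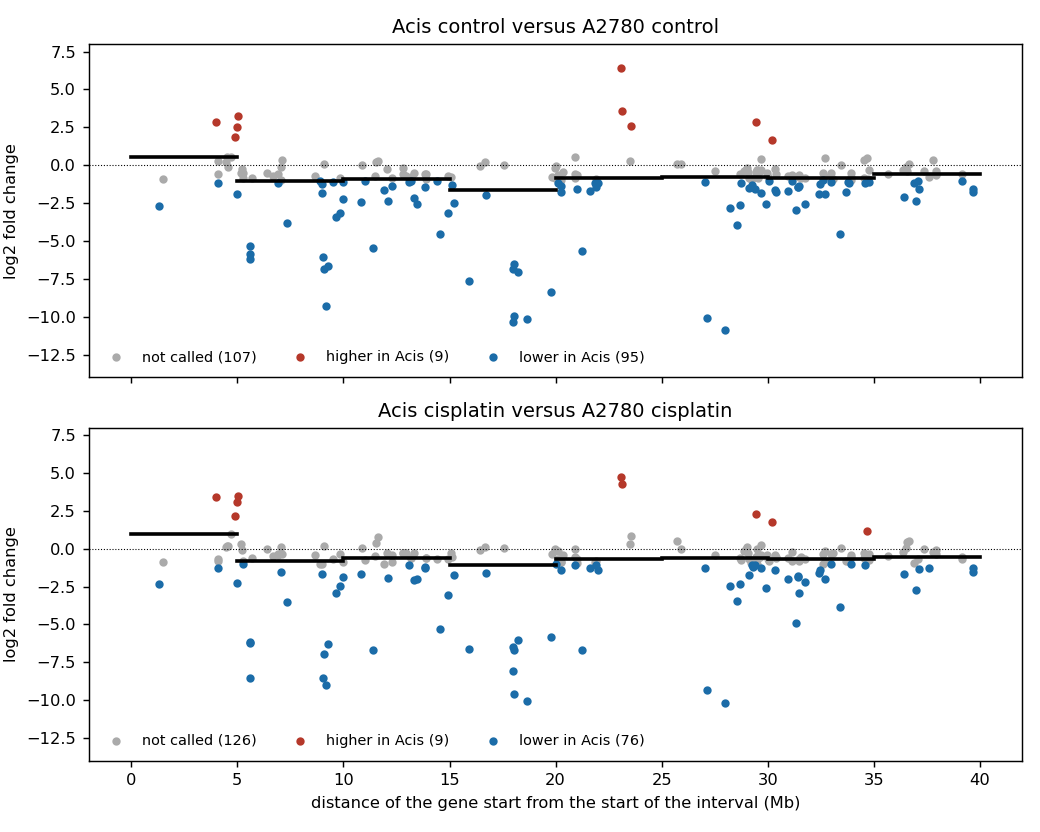
Log2 fold change of Acis against A2780 (vertical axis) for the 211 tested genes of the interval by distance of the gene start from 80 Mb (horizontal axis, Mb), in control and in cisplatin libraries. Points are genes, colours mark genes called higher or lower, and black bars are medians in windows of 5 Mb over genes averaging 50 counts or more, which lie at 0.57 from 80 to 85 Mb and between −0.61 and −1.63 from 85 to 120 Mb in control.

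Several genes were not detected in untreated Acis cells at this depth. No count was found in any of the 3 Acis control libraries for 11 tested genes, 7 of them protein coding (GBP4, GBP5, DPYD, SNX7, FRRS1, NTNG1 and VAV3), and 9 of the 11 also had no count with cisplatin. They passed the filter on low counts through other groups. How many of all genes tested lacked counts in Acis control, or in A2780 control, was not counted, so the 11 have no share to be read against. VAV3, a guanine nucleotide exchange factor, had 228, 246 and 236 normalized counts in the A2780 control libraries, 144, 153 and 133 after cisplatin and 0 in all 6 Acis libraries. With a floor of 3 counts over the 3 libraries of a group, the Acis control level was at least 216-fold lower. The A2780 lists had 23 and 7 peaks within its gene body, in control and cisplatin, and the Acis lists had none.

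NTNG1, an axon guidance protein anchored to the membrane, had 140, 113 and 147 normalized counts in A2780 control and 0 in every Acis library, at least 122-fold lower. It had 9 peaks in its body in A2780 control, 5 in A2780 cisplatin and none in Acis. DPYD, the first enzyme of pyrimidine breakdown, had 172, 168 and 152 in A2780 control and 0 in Acis control, at least 150-fold lower, and 1 count in 1 Acis cisplatin library. SNX7, a sorting nexin, had 142, 134 and 156 against 0, at least 131-fold lower. The annotated span of MIR137HG, the host transcript of a brain microRNA, overlaps that of DPYD on the same strand. The division of reads between them was not tested. MIR137HG had 488, 499 and 495 against 0, 0 and 1.14, which is 1 count in Acis control. That is a ratio of 1361 with an exact 95% counting interval of 244 to 53810. The adjusted p was below the threshold for each of these genes by edgeR's quasi-likelihood test, and none of their groups overlapped.

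Of 20 tested members of the list of GTPases, receptors and ligands, 11 were lower in Acis control at both thresholds and 1 higher (by adjusted p alone 18 and 2), with a median log2 fold change of −1.24, against −0.87 for the interval and −0.01 for all genes tested. For this and the lists that follow, the shares to read the counts against are the 45.0% of interval genes and 12.2% of all genes lower at both thresholds, and the 79.1% and 30.6% lower by adjusted p alone. CCN1, a matrix protein that signals through integrins, had 510, 543 and 516 normalized counts in A2780 control and 7.44, 13.9 and 5.70 in Acis control (log2 fold change −5.83, edgeR adjusted p = 2.2e-24). S1PR1, a receptor for sphingosine 1-phosphate, had 73.7, 71.1 and 91.8 against 3.19, 1.07 and 0 (−5.64, edgeR adjusted p = 2.6e-14). Both were lower in every Acis library than in any A2780 library, and S1PR1 had a peak at its start in the A2780 lists only. CSF1, the growth factor of macrophages, had 298, 265 and 276 against 49.9, 53.3 and 39.9 (−2.55, edgeR adjusted p = 7.6e-17). MAGI3, a scaffold protein of cell junctions, had 154, 142 and 144 against 7.44, 2.13 and 9.12 (−4.55) although its start was enriched 22.3, 18.8, 21.3 and 24.0 times in the 4 lists. NRAS had 670, 693 and 686 against 348, 376 and 368 (−0.91, edgeR adjusted p = 8.9e-15), a smaller difference that stood below the fold threshold. F3, which starts blood clotting as tissue factor, had 9.32, 12.5 and 12.8 against 0, 0 and 1.14, a ratio of 31.6 with an exact 95% counting interval of 5.32 to 1285. LPAR3, a receptor for lysophosphatidic acid, was the one member higher at both thresholds, with 62.5, 62.5 and 45.9 against 213, 207 and 212 (1.87, edgeR adjusted p = 2.8e-14).

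All 4 tested guanylate-binding protein genes, of 7 on the list, were lower in Acis, with a median log2 fold change of −6.74, or −6.09 when genes without counts were set at their bound. GBP1, an interferon-induced GTPase, had 450, 460 and 491 normalized counts in A2780 control and 4.25, 5.33 and 2.28 in Acis control (−6.82, SE 0.15, edgeR adjusted p = 1.9e-24). GBP4 had 77.4, 69.2 and 84.3 against 0, at least 70.2-fold lower, and GBP5 had 14.0, 13.5 and 9.60 against 0, at least 11.4-fold lower. No list had a peak at the start of any of these genes in either line. The genes are related neighbours, and whether reads were shared among them was not tested.

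Of 15 tested genes of RNA binding, splicing and translation, 5 were lower at both thresholds and none higher (14 and 1 by adjusted p alone), with a median of −0.82, near the −0.87 of the interval. PTBP2, a splicing regulator of neurons, had 444, 447 and 455 normalized counts against 103, 127 and 117 (−1.95, edgeR adjusted p = 3.2e-19). RPL5, a ribosomal protein, differed by −0.19 on the log2 scale. RNPC3, a protein of the minor spliceosome, was the member higher by adjusted p alone, at 0.27 (edgeR adjusted p = 0.011).

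All 11 tested genes of replication, repair and cell division were lower in Acis control by adjusted p and 5 at both thresholds, with a median of −0.96, so the share at both thresholds (5 of 11) was near that of the interval. CDC7, the kinase that fires replication origins, had 498, 485 and 466 normalized counts against 276, 297 and 320 (−0.70, edgeR adjusted p = 6.3e-11). DCLRE1B, a nuclease of telomeres and crosslink repair, differed by −0.96 (edgeR adjusted p = 4.3e-12), and TTF2, a transcription termination factor, by −1.01 (edgeR adjusted p = 2.0e-15). HFM1, whose start region is printed above, had 22.4, 17.3 and 24.5 against 0, 0 and 1.14, a ratio of 58.8 with an exact 95% counting interval of 10.2 to 2356.

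Of 11 tested transcription factors and chromatin regulators, 7 were lower at both thresholds and all 11 by adjusted p, with a median of −1.10. LMO4, a transcriptional cofactor, had 386, 394 and 368 normalized counts against 25.5, 29.8 and 27.4 (−3.79, SE 0.10, edgeR adjusted p = 1.7e-22). Its start peak went the other way, enriched 14.3 and 12 times in A2780 control and cisplatin and 23.3 and 23.2 times in Acis. MOV10, an RNA helicase, had 841, 810 and 846 against 233, 190 and 231 (−1.94, edgeR adjusted p = 5.3e-19). TRIM33, a ubiquitin ligase that restrains SMAD signalling, differed by −0.87 and ZNF644, a zinc finger protein, by −1.04.

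All 17 tested genes of metabolism and transport were lower in Acis control by adjusted p and 7 at both thresholds, with a median of −0.88, and the latter share and the median were near those of the interval. PHGDH, the first enzyme of serine synthesis, had 1186, 1186 and 1187 normalized counts against 423, 373 and 385 (−1.59, SE 0.04, edgeR adjusted p = 8.9e-22). DDAH1, which breaks down methylated arginines, had 325, 323 and 328 against 7.44, 3.20 and 2.28 (−6.18, edgeR adjusted p = 6.5e-22). SLC25A24, a carrier of the mitochondrial membrane, had 316, 309 and 297 against 39.3, 40.5 and 53.6 (−2.79, edgeR adjusted p = 9.9e-19).

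Of the glutathione S-transferases of the mu class, which join glutathione to electrophilic compounds, 3 of 5 were tested. GSTM2 was lower in Acis control (−1.84, edgeR adjusted p = 1.4e-06) and so was GSTM4 (−0.32, edgeR adjusted p = 0.024), while GSTM1 was higher (0.41, edgeR adjusted p = 0.0066). These genes are close copies of each other and the annotated span of GSTM2 covers GSTM1, so the division of reads among them is uncertain. The GSTM1 call lost the threshold with DESeq2 (DESeq2 adjusted p = 0.056) and without A2780 control replicate 3 or Acis control replicate 3 (edgeR adjusted p of up to 0.068), and the GSTM4 call with DESeq2 (DESeq2 adjusted p = 0.14) and without Acis control replicate 1 (edgeR adjusted p = 0.073).

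Of 10 tested adhesion and matrix genes, 5 were lower and 1 higher at both thresholds (8 and 1 by adjusted p alone), with a median of −0.95. OLFM3, a secreted olfactomedin of the nervous system, had 652, 670 and 646 normalized counts against 274, 272 and 311 (−1.20, SE 0.06, edgeR adjusted p = 2.3e-15). Only the A2780 lists had a peak at its start (enriched 10.8 and 14.3 times), while peaks in its body numbered 13 and 4 in A2780 control and cisplatin and 17 and 18 in Acis, one of them the Acis window printed above.

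COL11A1, which encodes a chain of a fibril-forming collagen, was the higher member and the largest rise of the interval. It had 305, 342 and 329 normalized counts in untreated A2780 and 167, 157 and 182 after cisplatin. In Acis it had 3924, 3946 and 3788 untreated and 3159, 3189 and 3282 after cisplatin. Every Acis library stood far above every A2780 library, and the control difference was 3.58 on the log2 scale (SE 0.04, edgeR adjusted p = 2.2e-30). COL11A1 was the one protein-coding gene with a start peak in both Acis lists (enriched 6.33 and 7.62 times) and in no A2780 list. The pseudogene SOD2P1 lies inside it on the same strand, and its own higher value is therefore uncertain.

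The other genes higher in Acis control at both thresholds were TTLL7, LPAR3, MCOLN2, MCOLN3, AMY2B, SYPL2 and KCNC4, and LPAR3, MCOLN2 and MCOLN3 lie next to each other near 85 Mb. MCOLN2 and MCOLN3, neighbouring cation channels of endosomes and lysosomes, had 22.4, 26.0 and 23.5 normalized counts against 147, 139 and 136 (2.54, edgeR adjusted p = 4.7e-16) and 9.32, 9.61 and 7.47 against 87.1, 90.6 and 79.8 (3.26, edgeR adjusted p = 1.8e-14). TTLL7, which adds glutamates to tubulin, had 13.1, 21.1 and 16 against 109, 130 and 127 (2.85, edgeR adjusted p = 2.3e-14). KCNC4, a voltage-gated potassium channel, had 48.5, 70.2 and 51.2 against 178, 192 and 163 (1.65, edgeR adjusted p = 1.4e-12). The start of LPAR3 was enriched 8.54 and 7.22 times in A2780 control and cisplatin and 15.6 times in both Acis lists, whereas SYPL2 was higher in Acis (2.87, edgeR adjusted p = 2.2e-11) with a start peak in the A2780 lists only.

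**Figure D4:**
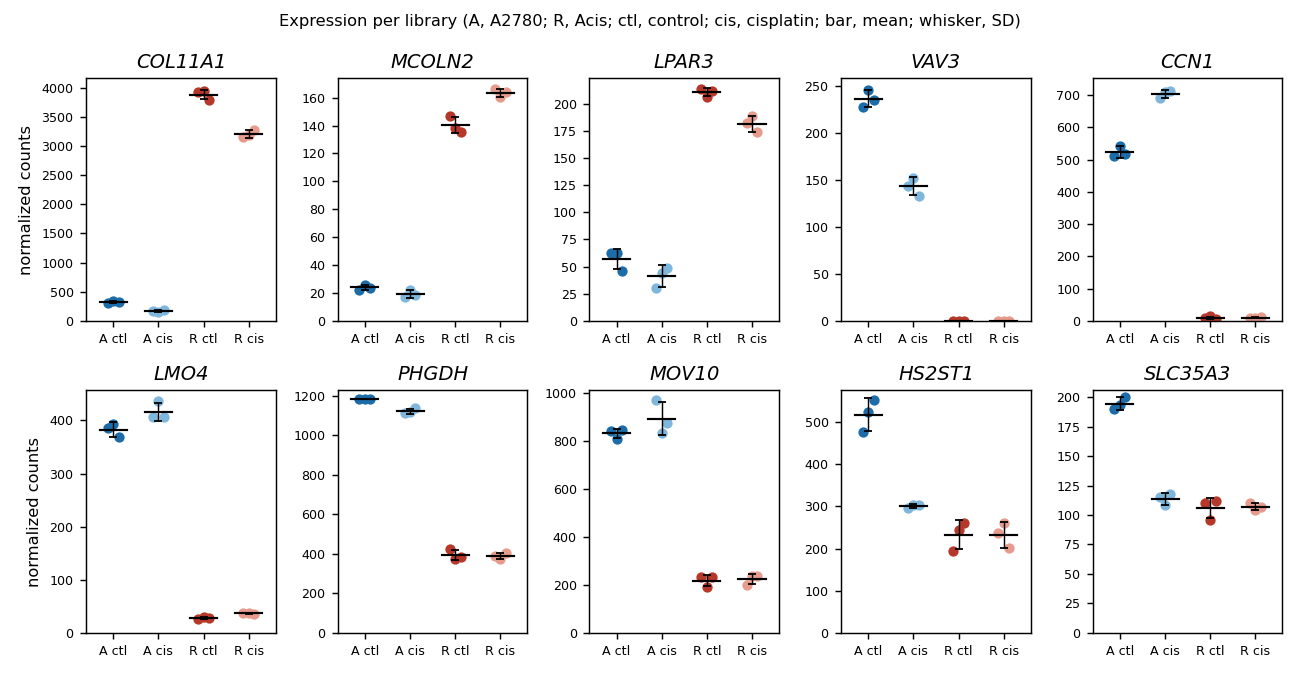
Normalized counts of 10 genes of the interval in each of the 12 libraries, as points, with the mean as a bar and the SD as a whisker for each group of 3. COL11A1, MCOLN2 and LPAR3 are higher in the Acis libraries, VAV3 is at 0 in all of them, and HS2ST1 and SLC35A3 fall with cisplatin in A2780 and stay level in Acis.

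Start peaks and expression were set side by side for the 184 protein-coding genes. A peak within 1000 bp of the start was found for 133 of them in the A2780 control list, 142 in the A2780 cisplatin list, 114 in the Acis control list and 120 in the Acis cisplatin list. For 113 genes all 4 lists had such a peak, and of the 108 tested among them 40 were lower and 2 higher in Acis control, with a median log2 fold change of −0.84. So the lower level was also present in genes whose start was listed as open in both lines. For 15 genes both A2780 lists and no Acis list had a start peak, and 14 were tested. Of these 11 were lower and 1 higher (SYPL2), with a median of −3.67. For 40 genes no list had a start peak, and of the 25 tested 13 were lower and 3 higher, with a median of −1.40. At the same thresholds 45.0% of all tested interval genes were lower and 4.27% higher, against 12.2% and 6.99% of all genes tested. Genes of the same start-peak classes outside the interval were not counted, so what is particular to the interval in these classes is not known.

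Among the 15 genes with start peaks in A2780 only were LRRC8C, HFM1, EPHX4, FNBP1L, F3, SNX7, S1PR1, OLFM3, NTNG1, VAV3, SLC25A24, EEIG2, SYPL2 and VANGL1. Another 8 genes, among them MCOLN3, DDAH1, CCN1 and PTGFRN, had one in A2780 cisplatin alone, and the 6 tested had a median of −3.59, or −3.28 with genes without counts at their bound. Start peaks in both cisplatin lists only were found for 2 genes, SLC22A15 and MAN1A2.

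Cisplatin changed few genes of the interval past both thresholds. In A2780, 12 of 211 genes rose (5.69%, against 4.14% of all genes tested) and 4 fell (1.90%, against 1.48%). By adjusted p alone 35 rose and 81 fell, against 21.2% and 28.2%. With total counts as the library size these were 49 and 65, so 43.0% rather than 30.2% of the called genes were higher, and the median of the interval moved from −0.13 to −0.01 while that of all genes moved from −0.01 to 0.10. Under either scaling the interval lay below the median of all genes. The 12 genes that rose had under 50 normalized counts, among them F3 (31.8, 32.9 and 27.5 with cisplatin against 9.32, 12.5 and 12.8, log2 fold change 1.41, edgeR adjusted p = 2.3e-05) and OVGP1, an oviduct glycoprotein (44.9, 48.3 and 47.1 against 14.9, 11.5 and 21.3, 1.57, edgeR adjusted p = 7.5e-07). None of the 4 that fell was protein coding (LINC02790, LINC01776, ENSG00000271277 and SLC16A4-AS1), and OVGP1 and all but the last of these were named after their values were seen.

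The gene lists were counted by adjusted p in A2780, where 38.4% of interval genes fell and 16.6% rose, against 28.2% and 21.2% of all genes tested. Differences between lists were not tested. Of 10 tested adhesion and matrix genes, 9 fell and none rose, and of 17 metabolism and transport genes 11 fell and 2 rose. Of 20 signalling genes 10 fell and 5 rose, of 11 genes of replication, repair and division 8 fell and 1 rose, of 11 transcription factors and chromatin regulators 6 fell, and of 15 RNA genes 4 fell and 4 rose. Of the 4 guanylate-binding protein genes 1 rose, and none of the 3 glutathione S-transferases was called. COL11A1 fell by 0.95 on the log2 scale (edgeR adjusted p = 3.1e-11) and VAV3 fell by 0.72 (edgeR adjusted p = 5.3e-08), while CCN1 rose by 0.43, from 510, 543 and 516 to 691, 709 and 713 (edgeR adjusted p = 1.1e-08).

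In Acis, 3 of 211 genes rose past both thresholds (1.42%, against 1.64% of all genes tested) and none fell (against 0.374%). By edgeR at an unadjusted p under 0.05, 1 gene fell by at least 1 on the log2 scale and 16 fell at any size, and DESeq2, which gave no adjusted p for 8 genes, called none. By adjusted p alone 12 rose and 9 fell, against 9.35% and 12.4%, and the median was 0.02, against 0.01 for all genes. The 3 that rose were named after their values were seen. OVGP1 went from 3.19, 4.26 and 10.3 to 12.5, 14.8 and 10.8 normalized counts (1.11, edgeR adjusted p = 0.039). INKA2, an inhibitor of the kinase PAK4, went from 9.56, 10.7 and 7.98 to 16.3, 21.7 and 20.6 (1.04, edgeR adjusted p = 0.0092). The third was the noncoding gene ENSG00000260948 (1.48, edgeR adjusted p = 0.0056).

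The cisplatin effect in Acis minus that in A2780 was above 0 for 47 of 211 genes (22.3%, against 13.4% of all genes tested) and below 0 for 5 (2.37%, against 5.48%) at an adjusted p under 0.05. These counts depended on the method, with 24 above and 0 below 0 by DESeq2, which gave no adjusted p for 55 of the 211 genes, 4 of them called by edgeR, and 30 above 0 by edgeR without Acis control replicate 1. The 47 differences ranged from 0.20 to 1.21 with a median of 0.43. All 47 genes were below 0 in A2780, 42 of them past the adjusted p threshold, and 5 passed it in Acis. The genes were picked by a difference that contains the A2780 change, so their values below 0 there follow in part from that choice. HS2ST1, a sulfotransferase of heparan sulfate, had 477, 525 and 554 normalized counts in A2780 control and 296, 304 and 303 with cisplatin, and 194, 244 and 260 then 236, 262 and 200 in Acis. It fell by 0.78 in A2780 (edgeR adjusted p = 1.8e-09) and moved by 0.00 in Acis, a difference of 0.78 (edgeR adjusted p = 5.5e-05). Another coding gene overlaps HS2ST1 on the same strand, and the division of reads between them was not tested.

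SLC35A3, which carries UDP-N-acetylglucosamine into the Golgi, had 190, 193 and 201 normalized counts in untreated A2780 and 115, 108 and 118 after cisplatin. The Acis values were 110, 95.9 and 112 untreated and 110, 104 and 107 after cisplatin. The A2780 cisplatin libraries thus reached the range of the Acis libraries, and the difference of responses was 0.79 (edgeR adjusted p = 5.9e-05). A read-through gene overlaps SLC35A3 on the same strand, and the division of reads between them was not tested. SLC16A4-AS1, an antisense transcript, had 77.4, 79.8 and 74.7 in untreated A2780 and 22.5, 35.8 and 30.4 after cisplatin, against 21.2, 19.2 and 28.5 and then 17.3, 25.6 and 17.7 in Acis. Its A2780 cisplatin libraries also came close to the Acis ones, and the difference of responses was 1.21 (edgeR adjusted p = 0.0043). For COL11A1 the fall was −0.95 in A2780 and −0.28 in Acis, a difference of 0.67 (edgeR adjusted p = 1.2e-06).

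In the other direction were TXN2P1, MFSD14A, AMY2B, PSRC1 and RBM15, from −1.78 to −0.20. PSRC1, a protein of the mitotic spindle, went from 344, 329 and 336 to 372, 366 and 327 normalized counts in A2780 and from 191, 183 and 189 to 146, 149 and 170 in Acis, a difference of −0.36 (edgeR adjusted p = 0.015). RBM15, which guides RNA methylation, went from 685, 667 and 658 to 811, 796 and 763 in A2780 and from 567, 607 and 550 to 579, 590 and 601 in Acis, a difference of −0.20 (edgeR adjusted p = 0.027). Both calls lost the threshold with DESeq2 (DESeq2 adjusted p = 0.081 for PSRC1 and 0.11 for RBM15) and when some single libraries were left out. PSRC1 lost it without Acis cisplatin replicate 1 or 2 (edgeR adjusted p of up to 0.061), and RBM15 lost it without any one of 6 libraries (edgeR adjusted p of up to 0.11). Both had start peaks in all 4 lists.

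**Figure D5:**
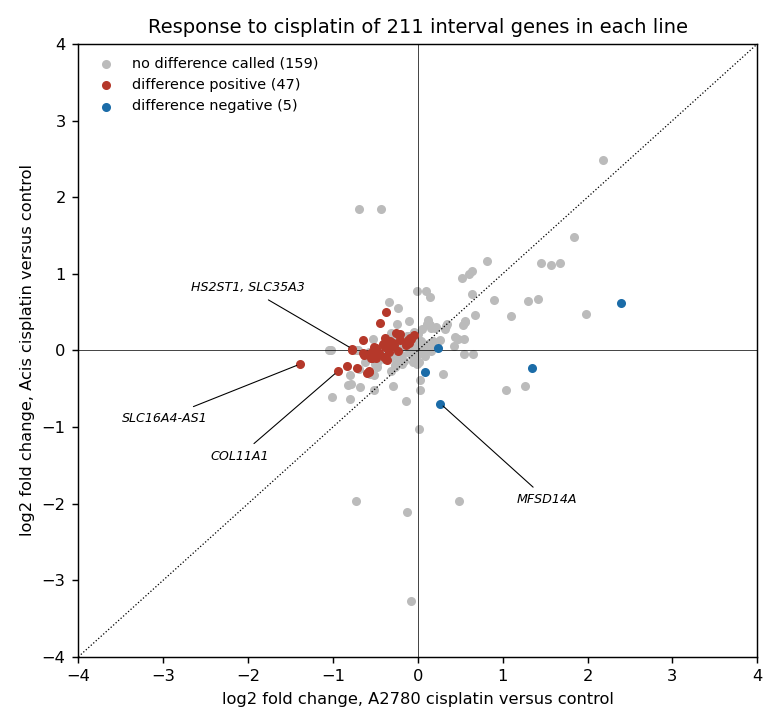
Log2 fold change with cisplatin in A2780 (horizontal axis) against that in Acis (vertical axis) for the 211 tested genes of the interval, coloured by whether the difference between the lines passed an adjusted p under 0.05. The 47 genes with a positive difference all lie left of 0 on the horizontal axis, a side that picking them by this difference favours. Another 5 have a negative difference.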

How the data were processed

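RNA-seq and ATAC-seq files of A2780 and Acis cells, control or cisplatin, were analyzed, and the XR-seq samples were not analysed here. The authors aligned stranded, ribosomal RNA-depleted reads with STAR 2.7.3, removed duplicates and deposited raw counts from HTSeq 0.11.1. ATAC-seq reads were aligned with Bowtie2 2.4.1, up to 10 places a read, and the lists hold MACS2 peaks found in all replicates. The deposited peaks carry a fold enrichment ratio, a −log10 p and a −log10 q as the authors' peak caller gave them, a display score and a summit position, and the deposited score was not used. Because weak peaks and peaks missed in 1 replicate are not listed, absence from a list is not a measured absence of open chromatin.

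Counts of 23622 genes were fitted with edgeR 4.0.16 in R 4.3.3 (TMM normalization, factors 0.965 to 1.05, default filter, 4 groups over 12 libraries, 8 residual degrees of freedom). All 15760 tested genes were adjusted together by the Benjamini-Hochberg method, with calls at an adjusted p below 0.05 and a log2 fold change of 1 or more in size, or the adjusted p alone for the interaction. The SE of a log2 fold change was taken from the quasi-likelihood F statistic. A normalized count is the count after TMM scaling, at the mean library size. Folds against a group without counts used a floor of 3 counts over the group, and all such limits and intervals cover counting error only. Genes were placed by GENCODE 44 (109 identifiers had no match) and sequence was read from the GRCh38 genome. Overlaps of at least 1 bp were found with bedtools 2.31.1, copies of windows with blastn 2.17.0, and plots were drawn with matplotlib 3.10.9 in Python 3.11.15. The edgeR steps were tested on simulated data. DESeq2 1.42.0, other scalings and filters, each left-out replicate and the sum of the closest pair of replicates were alternatives, the last chosen after seeing the data.

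Named genes were, among called genes whose groups were apart and whose higher group averaged 50 normalized counts or more, the 8 largest changes in each direction between lines and the 4 largest with cisplatin, with the 3 smallest adjusted p for the interaction in each direction, the 4 members of each list with the smallest adjusted p, the 5 strongest line-particular start peaks, the genes at the 3 strongest peaks, and the longest and shortest coding gene. NRAS, RPL5 and other genes outside it were named for their role after their values were seen. The interval, gene lists and tests were chosen with earlier results of these data known. Replicates of some groups were closer than counting noise and were kept as 3 replicates.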

Additional observations from a re-analysis of the deposited data

Results flagged for a closer look

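For 14 named genes of the interval the effect of cisplatin differed between the lines at an adjusted p under 0.05 by the interaction term of edgeR's quasi-likelihood model, given as the log2 fold change in Acis minus that in A2780. The difference was positive for COL11A1 (0.67), SLC16A4-AS1 (1.21), HS2ST1 (0.78), SLC35A3 (0.79), TTF2 (0.35), RPAP2 (0.54), TRIM33 (0.28), ZNF644 (0.30), PTGFRN (0.27), DBT (0.44) and RSBN1 (0.39). In A2780 all 11 of these were lower with cisplatin, from −1.39 for SLC16A4-AS1 to −0.28 for TTF2. Choosing genes by this difference favours lower values in A2780. In Acis the changes of the 11 genes ran from −0.29 for ZNF644 to 0.16 for RPAP2. The difference was negative for PSRC1 (−0.36), RBM15 (−0.20) and MFSD14A (−0.96). MFSD14A, a membrane transporter, had only 23.1 to 27.0 normalized counts in A2780 control, and its locus overlaps a read-through gene, so its value is uncertain. SLC35A3 overlaps the same gene and HS2ST1 another coding gene, both on the same strand, and the effect on their counts was not tested. The calls of PSRC1 and RBM15 were lost with DESeq2, which gave MFSD14A no adjusted p.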

How the results depend on the processing

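Both comparisons of the lines kept their direction under all alternatives. Genes lower and higher in Acis control numbered 95 and 9, 94 to 101 and 9 when a replicate was left out (median log2 −0.92 to −0.87), 56 and 5 of 139 genes with a mean of at least 50 counts, 167 and 15 by adjusted p alone, and 104 and 9 with the closest pair of replicates summed. In cisplatin libraries they ranged from 73 to 83 and from 9 to 10 (median −0.75 to −0.69), with 41 and 5 at the mean of 50 and 160 and 16 by adjusted p alone, and the median was −0.76 with total counts as library size, −0.80 without a filter, −0.82 with DESeq2 and −0.73 with summed pairs. With cisplatin in A2780, 11 to 14 genes rose and 1 to 5 fell (1 without A2780 cisplatin replicate 1, 2 without A2780 control replicate 2 or 3; median −0.16 to −0.09), 19 and 8 without a filter, 0 and 0 at the mean of 50, 35 and 81 by adjusted p alone, 7 and 0 of coding genes (median −0.21), 2 fell in a fit of the A2780 libraries alone, and 1 fell with total counts (median −0.010). With cisplatin in Acis 1 to 4 rose (1 without Acis cisplatin replicate 2) and 0 to 1 fell (1 without Acis cisplatin replicate 3; median 0.01 to 0.04), 1 rose at the mean of 50, 12 and 9 were called by adjusted p alone, and the median was 0.079 with total counts. The lines' responses differed in 30 to 52 genes upward (30 without Acis control replicate 1) and 1 to 5 downward, 24 and 0 with DESeq2, and downward in 2 without a filter, 3 at the mean of 50 and 1 with summed pairs.

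The replicate numbers did not pair the libraries, with correlations of −0.18 to 0.25 between same-numbered ones. A replicate block gave 9 and 95, 9 and 76, 12 and 4, 3 and 0, and 48 and 4 genes higher and lower in the 5 tests.

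Of 1197 alternative values for named genes, 1170 kept direction and side of the threshold, 26 lost the threshold (PSRC1, RBM15 and MFSD14A for the interaction, GSTM1 and GSTM4 between lines), and MFSD14A between lines ranged from −0.20 to 0.034 with a replicate left out, against −0.075, and turned positive without Acis control replicate 2.

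Among the 20000 strongest peaks the interval held 243 in A2780 control and 230 in A2780 cisplatin, of which 100 and 92 had no Acis counterpart, and 31 Acis cisplatin peaks had no A2780 one. At a −log10 q of at least 20 the last numbers were 111 and 33, and at 50% reciprocal overlap 85 Acis cisplatin peaks were not shared. This depth leaves genes under the floor of 3 counts undetected, and the lists, with no replicates, allow no error on peak numbers.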
